A study of Mus musculus with 42 samples.

Results

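Lungs of mice given 1.0 Gy of 56Fe particles as 5 exposures of 0.2 Gy were set against lungs of mice given the same total dose in a single exposure of 1.0 Gy. The groups were taken from the source label of each array, and the comparison holds 28 of the 42 arrays of the series, 13 fractionated and 15 acute. A further array labelled fractionated, replicate 13, was left out because its column of the deposited value table is empty; the series' design text counts 13 fractionated mice. The 13 arrays of unirradiated control mice were used for the levels beside the irradiated ones and for the estimate of the spread.

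All mice of the 3 groups, controls included, were of the 129S2 background and carried the same engineered allele, which makes the strain prone to lung tumours without an added agent. The labels do not say how much tumour a lung held. The fractionated group had 6 females and 7 males, the acute group 7 females and 8 males, and the control group 6 females and 7 males; the labels give no age. The particles had 1.0 GeV per nucleon, the whole left lung was frozen 70 days after exposure, and each lung was hybridised to 1 Illumina BeadChip array. Every value is thus 1 mouse. The p-values measure the spread between mice together with that between the slides of the arrays, as the main fit has no slide term. In a whole lung, fewer cells of a type and less RNA per cell cannot be told apart.

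56Fe nuclei are a heavy component of cosmic radiation that deposits energy densely along each track. Dividing a dose is a classic test of recovery: with sparsely ionising radiation, repair between exposures spares tissue, while with densely ionising particles that sparing is small or absent. Damaged cells respond through p53, whose targets stop the cell cycle or start cell death, and irradiated lung is known for later inflammation, senescence and fibrosis. The comparison asks whether the pace of delivery left a different transcript profile in the lung at equal total dose.

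Each array detected 16264 to 18289 probes, and its median signal lay between 90.5 and 155. Defining lung genes were near the top of the scale in every group: the median log2 signal of Sftpc, a surfactant protein of alveolar type 2 cells, was 14.66 in fractionated, 14.75 in acute and 14.75 in control lungs. Ager, a marker of alveolar type 1 cells, had medians of 14.16, 14.16 and 14.19 in the same order. The array left out had a correlation of 0.866 with the median profile of all arrays, against 0.962 to 0.991 for the other 41. The arrays lay on 8 slides, of which 7 hold both irradiated groups, while slide 8 holds fractionated mouse 14 alone. Slide carried 93.8% of the variance of the second principal component (17.7% of all variance). The 17 arrays of slides 3 to 5, controls included, lay apart from all others on that component, and are taken alone or left out below. Group carried between 0.15% and 5.74% of each of the first 5 components.

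Of the 28 irradiated lungs 3 stood apart, fractionated mice 4 and 7 and acute mouse 9. For each gene list a lung was given a score, the mean log2 deviation of the list's genes from their average over lungs. Their macrophage scores of 1.28, 1.10 and 1.16 were the 3 highest of 41 lungs, and the highest control lung had 0.38. Their cytokine scores of 0.97, 1.17 and 1.08 were likewise the 3 highest, against at most 0.12 in control lungs. The same 3 lungs had the 3 highest scores for alveolar type 2 genes (0.46, 0.43 and 0.55) and for MHC class II genes (0.64, 0.76 and 0.79). They had the 3 lowest scores for endothelial genes (-0.98, -0.60 and -0.90) and for alveolar type 1 genes (-0.33, -0.51 and -0.56), while the lowest control lungs had -0.26 and -0.22. Acute mouse 9 and fractionated mouse 7 had the highest and second highest scores for lung tumour markers, 0.86 and 0.53, while fractionated mouse 4 had 0.39, below the highest control lung at 0.53. Such lungs were thus found after both regimens. They were picked from these scores after seeing the data, so the ranks describe them and are no separate support. Some genes are also in more than 1 of the lists. Not every list set them apart: their T and NK cell scores ranked 22, 13 and 10 from the highest of 41.

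No probe differed between fractionated and acute lungs by limma's moderated test with Benjamini-Hochberg adjustment: 0 of 17872 tested probes passed an adjusted p of 0.05 (0.0%), and the smallest adjusted p was 1.00. At an unadjusted p under 0.05 there were 308 probes (1.72%), beside the 5% that the threshold itself allows, and there were 503 with slide as a fixed block and 530 with slide as a random block. Of the 308, 114 were higher (0.638%) and 194 lower (1.09%) in fractionated lungs; with median scaling in place of quantile normalization the split was 7 higher and 398 lower, and that scaling moved the median over all probes to -0.09. No probe had fractionated and acute values that did not overlap (0.0%). Of 10269 genes, each represented by its brightest tested probe, 135 were under an unadjusted p of 0.05 (1.31%).

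The size of the differences was bounded as well. The median absolute difference was 0.056 on the log2 scale, and 95% of probes lay between -0.22 and 0.20, as fractionated minus acute. The 95% confidence interval lay wholly within a 1.5-fold difference in either direction for 16934 probes (94.8%) and within a 2-fold difference for 17666 (98.8%). For the remaining 206 probes a 2-fold difference in at least one direction was not excluded by the interval. An observed difference over 1.5-fold was seen for 35 probes and over 2-fold for 4. The lungs of the fractionated group varied somewhat more among themselves: the median SD of a probe was 0.320 in fractionated, 0.287 in acute and 0.279 in control lungs, and 11781 probes (65.9%) had the greater SD in fractionated than in acute lungs. This was not tested, and the probes of a lung are not independent. The fractionated group holds mice 4 and 7, which stood apart, and mouse 14, alone on its slide.

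**Figure D1:**
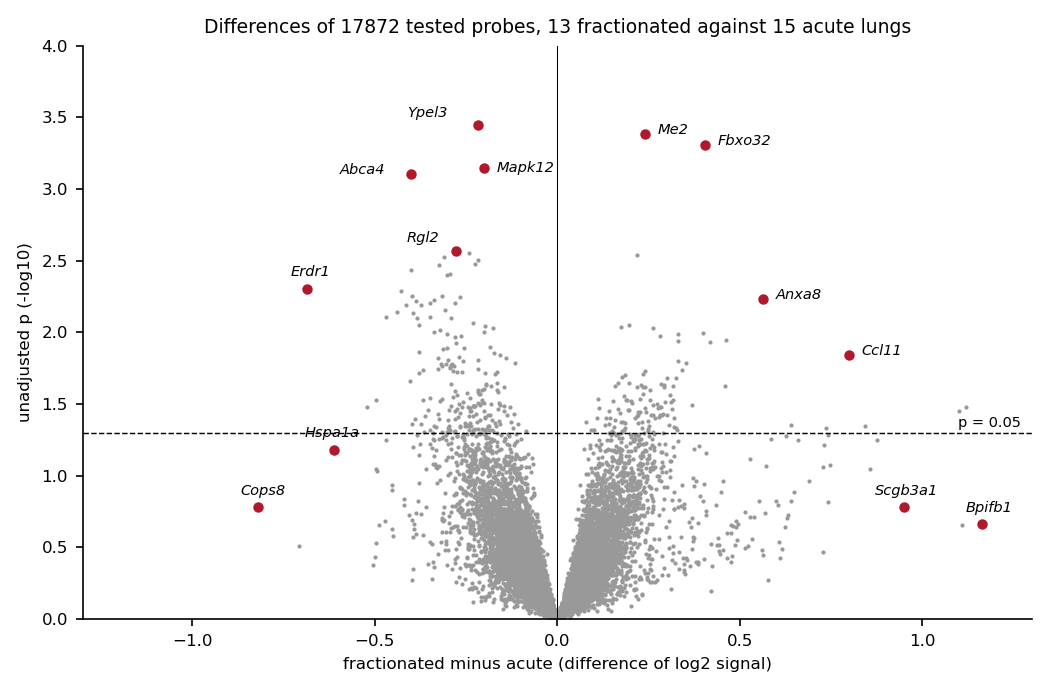
Difference of log2 signal (fractionated minus acute, horizontal axis) against the unadjusted p on a -log10 scale (vertical axis) for 17872 probes, with some genes named and a dashed line at p = 0.05. Most probes lie within 0.22 of 0, and the genes farthest out, such as Bpifb1 at 1.16, are not those of smallest p.

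The gene of smallest p was Ypel3, a growth suppressor that p53 induces in human cells. Its log2 signal ran from 13.02 through a median of 13.24 to 13.51 in fractionated lungs, and from 13.24 through 13.49 to 13.74 in acute lungs, with a control median of 13.48. The groups overlapped, but 12 of 13 fractionated lungs were below the acute median and 7 were below the whole acute range. The difference was -0.22 ± 0.056 (SE; unadjusted p = 0.00036, adjusted p = 1.00 by limma), and the other tested probe of the gene gave -0.18. Mapk12, which encodes the stress-activated kinase p38 gamma, ran from 8.99 through 9.32 to 9.56 in fractionated lungs and from 9.30 through 9.53 to 9.72 in acute lungs. It stood lower in fractionated lungs on all 7 slides that hold both groups, by -0.20 ± 0.055 in the fit, with its other 2 tested probes at -0.16.

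Abca4, a lipid transporter best known from the retina, had a median of 5.48 in fractionated lungs (range 4.85 to 5.72) and of 5.80 in acute lungs (range 5.00 to 6.47). All 13 fractionated lungs lay below the acute median, although only 2 were below the acute range, and the difference was -0.40 ± 0.111. Its control median was 5.57, nearer to the fractionated lungs. Rgl2, an activator of Ral GTPases and an effector of Ras, had a median of 10.64 in fractionated lungs (10.42 to 11.02), 10.89 in acute lungs (10.66 to 11.29) and 10.98 in control lungs. It differed by -0.28 ± 0.087, in the same direction on 7 of 7 slides, and its other probe gave -0.16.

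The other 6 genes of smallest p in this direction spanned differences of -0.22 to -0.40. They were Dgka (diacylglycerol kinase alpha), Pan2 (a nuclease that shortens poly(A) tails), Zcchc7 (a cofactor of nuclear RNA decay), Pde4b (a phosphodiesterase that breaks down cAMP), Iqgap1 (a cytoskeletal scaffold) and Cflar (an inhibitor of caspase-8). Cflar had a median of 8.01 in fractionated lungs and 8.42 in acute lungs, with 7 of 13 fractionated lungs below the acute range and a control median of 8.15. For Iqgap1 the difference of -0.40 rested on 1 dim probe (medians 6.35 in fractionated and 6.49 in acute lungs), while its other 2 tested probes lay between -0.0049 and 0.0054.

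Among genes that stood higher in fractionated lungs, Me2 had the smallest p. It encodes a mitochondrial malic enzyme, which turns malate into pyruvate. Its log2 signal ran from 7.72 through 7.99 to 8.29 in fractionated lungs, from 7.38 through 7.75 to 8.04 in acute lungs and from 7.62 through 7.81 to 8.17 in control lungs. Of the fractionated lungs, 12 of 13 were above the acute median and 3 above the acute range, and all 7 slides gave the same direction. The difference was 0.24 ± 0.063, a 1.18-fold ratio (95% interval 1.08 to 1.29).

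Fbxo32, a ubiquitin ligase known as atrogin-1 from wasting muscle, had a median of 7.08 in fractionated lungs (6.62 to 7.52) and 6.65 in acute lungs (6.23 to 7.34). The control lungs lay between them, with a median of 6.85, and the difference was 0.40 ± 0.107, with 0.14 at the other probe. Anxa8, a calcium-dependent membrane-binding annexin, had a median of 6.57 in fractionated lungs (5.40 to 7.15) and 6.10 in acute lungs (5.04 to 6.54). There 8 of 13 fractionated lungs lay outside the acute range, but the slides ranged from -0.07 to 1.17 around a fitted difference of 0.56 ± 0.194.

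The other 7 genes of smallest p in this direction had differences of 0.17 to 0.46. They include Ccdc88a, the actin-binding protein girdin (0.26), and Pdcd11, a factor of ribosomal RNA processing (0.33), both higher on 7 of 7 slides. Fkbp14, a folding enzyme of the endoplasmic reticulum, stood at 0.28. Arfgap3, which acts on the coats of Golgi vesicles, stood at 0.17, and Tnfrsf26, a receptor of the tumour necrosis factor family, at 0.46. The other probes of 2 genes did not give the same size: Ppp2r5e, a regulatory subunit of protein phosphatase 2A (0.20, against -0.03), and Rbbp7, a histone-binding subunit of chromatin complexes (0.40, against -0.08 to 0.03 at 3 probes). None of the 20 genes passed the adjustment. Their counts of lungs and slides, like those of the genes below, come from the same lungs that ranked the genes. They describe the values and are no separate support.

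**Figure D2:**
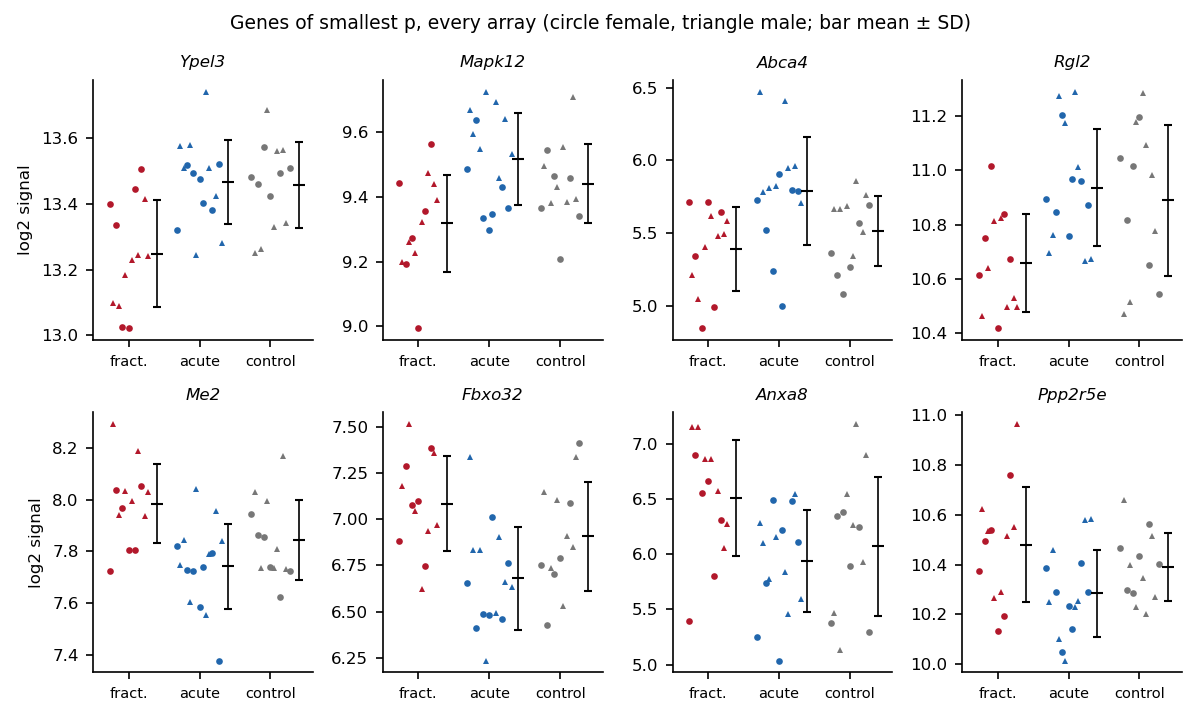
Log2 signal of every lung (vertical axis, points; circles females, triangles males) with mean ± SD (bars) for 8 of the genes of smallest p in 13 fractionated, 15 acute and 13 control lungs. In each gene the fractionated and acute points overlap, as for Ypel3, where fractionated lungs reach from 13.02 to 13.51 and acute lungs from 13.24 to 13.74.

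**Figure D3:**
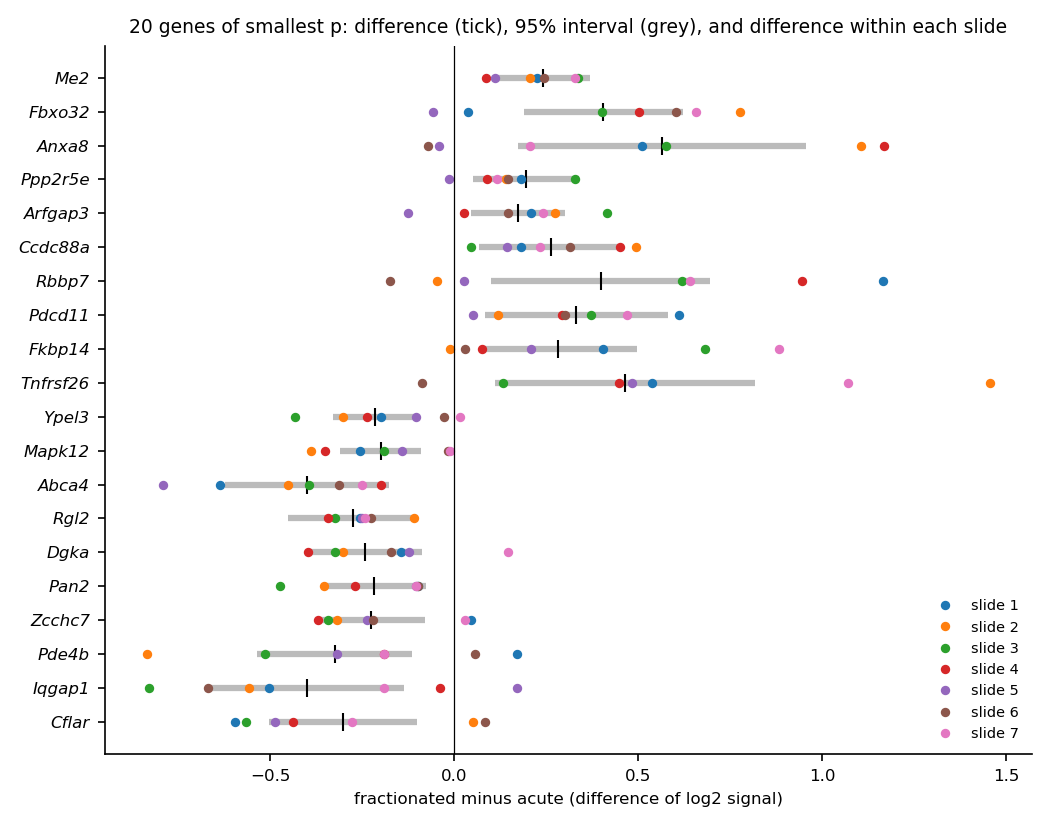
Fitted difference (tick) with its 95% interval (grey bar) and the difference of group means within each of 7 slides (coloured points) for the 20 genes of smallest p. All 7 points lie on one side of 0 for Me2, Ccdc88a, Pdcd11, Mapk12, Abca4, Rgl2 and Pan2, while for genes such as Tnfrsf26 they range from -0.09 to 1.46. The points come from the same lungs that ranked the genes.

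The largest differences had wide errors, and 3 of the 5 largest positive ones belonged to genes of airway secretion. Bpifb1, a secreted antimicrobial protein of airway glands and goblet cells, ran from 5.41 through 10.85 to 12.78 in fractionated lungs and from 5.39 through 8.22 to 12.57 in acute lungs. Both groups spanned nearly the whole range, and the difference of 1.16 ± 0.929 had an interval of -0.71 to 3.04. Scgb3a1, a secretoglobin of large airways, stood at 0.95 ± 0.674, and Bpifa1, another airway protein of the same family as Bpifb1, at 0.73 ± 0.755. For all 3 genes the sexes went opposite ways, with Scgb3a1 at -0.33 in females and 2.06 in males. Bpifa1 dropped to 0.46 without fractionated mouse 6 and rose to 1.08 without acute mouse 6. Orm2, an acute-phase glycoprotein, had a median of 6.81 in fractionated lungs and 5.79 in acute lungs, with 11 of 13 fractionated lungs above the acute median and a difference of 0.73 ± 0.358.

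Ccl11, the eosinophil attractant eotaxin, was the one large difference of cytokine genes. Its log2 signal ran from 5.32 through 7.06 to 9.63 in fractionated lungs, from 5.52 through 6.39 to 7.18 in acute lungs, and from 5.61 through 6.52 to 8.004 in control lungs. The 3 highest values of all belonged to fractionated mice 7, 4 and 3 (9.63, 9.18 and 8.83). Of the fractionated lungs, 5 of 13 lay outside the acute range, the lowest of them, at 5.32, below it. The difference was 0.80 ± 0.313 (unadjusted p = 0.014 by limma). At this probe it was 0.59 without fractionated mouse 7 and 0.96 without fractionated mouse 9. The brighter probe of the gene gave 0.63, not under an unadjusted p of 0.05 by limma.

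On the lower side, Erdr1, first described as a regulator of red cell differentiation, ran from 4.44 through 7.27 to 7.60 in fractionated lungs and from 7.01 through 7.71 to 8.44 in acute lungs. All 13 fractionated lungs were below the acute median. On 7 of 7 slides the fractionated mean was below the acute mean of the same slide, and the fitted difference was -0.69 ± 0.231. Without fractionated mouse 10, which had the value of 4.44, it was -0.48, and the other probe of the gene gave -0.38. Rgs11, an inhibitor of G protein signalling, had medians of 7.06 in fractionated and 7.62 in acute lungs, a difference of -0.52 ± 0.237, with 13 of 13 fractionated lungs below the acute median. Hspa1a, an inducible Hsp70 chaperone, had medians of 8.24 and 8.56 in the same order and a difference of -0.61 ± 0.324.

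Cops8, a subunit of the COP9 signalosome, had the largest negative difference, -0.82 ± 0.581, and its values fell into 3 separate levels. Below 7 lay 3 of 13 fractionated, 1 of 15 acute and 1 of 13 control lungs, between 9.21 and 9.80 lay 7, 10 and 8, and above 10 lay 3, 4 and 4. The difference was -0.46 without fractionated mouse 2 and -1.11 without acute mouse 4. Mb, myoglobin of heart and skeletal muscle, ran from 5.25 to 12.35 in fractionated lungs and from 5.61 to 12.10 in acute lungs. Its difference of -0.50 ± 0.619 was -0.11 without fractionated mouse 4 and -0.74 without acute mouse 1.

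**Figure D4:**
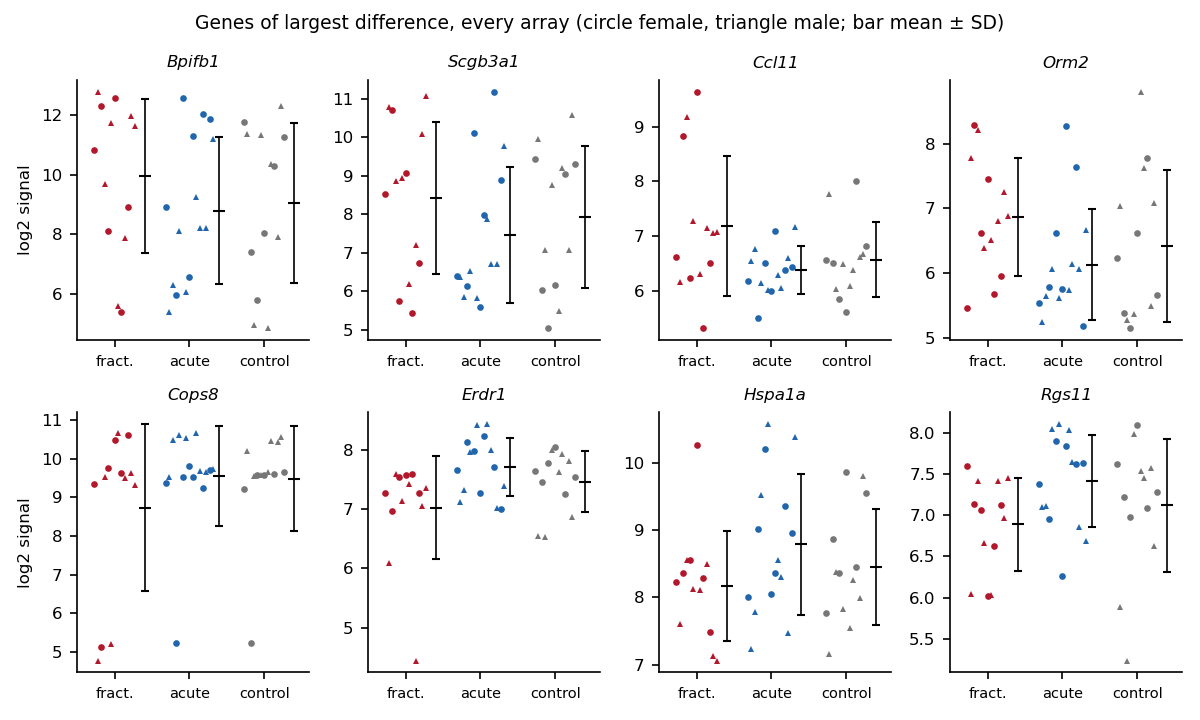
Log2 signal of every lung (vertical axis, points; circles females, triangles males) with mean ± SD (bars) for 8 of the genes of largest difference in 13 fractionated, 15 acute and 13 control lungs. Bpifb1 spreads from about 5 to 13 in both irradiated groups, 3 fractionated lungs lie far above the acute lungs in Ccl11, and Cops8 falls into 3 levels.

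Genes of the damage response did not separate the regimens. Cdkn1a, the p53 target that arrests the cell cycle, ran from 9.92 through 11.06 to 11.95 in fractionated lungs and from 9.89 through 11.05 to 11.52 in acute lungs, with a control median of 10.91. Its difference was 0.07 ± 0.206, with an interval of -0.34 to 0.49. Mdm2, the ligase that p53 induces to limit itself, had medians of 11.07 and 11.02 in the same order, and an interval of -0.17 to 0.16. Of 20 tested p53 targets, 11 stood higher and 9 lower, and their median of 0.0072 lay beside a median of -0.0029 over all 10269 genes, of which 4958 were higher and 5311 lower. With median scaling the p53 list turned to -0.08, beside a median of -0.09 over all probes under that scaling. Here and for the lists below, a value under median scaling is to be read against that -0.09, not against 0. Tnfrsf10b, the death receptor DR5, was the single member under an unadjusted p of 0.05, at 0.31 ± 0.15, and Ccng1, cyclin G1, had 0.11 ± 0.066, with its other 2 probes at -0.10 and -0.06. Over all 10269 genes 135 were under that p (1.31%), the share to set beside the members of each list below. No member of any list passed the adjustment.

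For the 31 tested genes of DNA repair and checkpoints, 13 were higher and 18 lower, with a median of -0.02, and all 31 intervals lay within 1.5-fold, against 95.3% of all genes. Xpc and Ddb2, which recognise ultraviolet lesions for excision repair, had the smallest p of the list, at -0.11 ± 0.07 and -0.22 ± 0.14. Atm, the kinase that signals double-strand breaks, stood at -0.02 ± 0.078. Of 18 genes of replication and mitosis, 11 were higher and 7 lower, with a median of 0.04 that turned to -0.06 with median scaling and to -0.03 without fractionated mouse 7. Cenpa, the histone of centromeres, stood at -0.14 and Cdc6, a licensing factor of replication, at 0.16. Top2a, the topoisomerase of dividing cells, stood at -0.0054 ± 0.209 and Mcm6, of the replicative helicase, at 0.08 ± 0.184.

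The senescence and secretory list had a median of 0.04 over 15 genes, which turned to -0.05 with median scaling. It was 0.0045 without fractionated mouse 4, which had the highest score of all 41 lungs (0.61). Cdkn2b, an inhibitor of cyclin-dependent kinases, stood at 0.20 ± 0.12 and Timp1, an inhibitor of matrix proteases, at 0.40 ± 0.27, neither under an unadjusted p of 0.05. Cdkn2a, the locus of p16, had medians of 7.04 in fractionated, 7.09 in acute and 6.88 in control lungs, and a difference of -0.09 ± 0.196.

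Inflammatory genes spread widely between mice. Of 22 cytokine genes 14 were higher in fractionated lungs, with a median of 0.11 that held its sign with median scaling (0.02). That median was 0.01 without fractionated mouse 4, 0.19 without acute mouse 9 and -0.19 on slides 3 to 5 alone. Ccl11 at its brighter probe stood at 0.63 ± 0.31, and Ccl7, an attractant of monocytes, at 0.31 ± 0.17. The cytokine score of a lung had an SD of 0.56 in fractionated, 0.43 in acute and 0.15 in control lungs. For genes of macrophages and dendritic cells the SDs were 0.64, 0.44 and 0.26.

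Without fractionated mice 4 and 7 and acute mouse 9, 0 probes passed the adjustment in 11 fractionated and 14 acute lungs and 328 were under an unadjusted p of 0.05; this setting was chosen after seeing the data. The median of the cytokine list was then -0.0071 and that of the macrophage list -0.05, and that of the endothelial list 0.06, against 0.0087 with all lungs. Ccl11 stood at 0.45 ± 0.257 without them, and Hspa1a at -0.88. The genes of smallest p kept similar values, such as Me2 at 0.27, Abca4 at -0.45 and Ypel3 at -0.19.

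Interferon-induced genes had a median of -0.05 over 20 tested, 15 of them lower, which turned to 0.10 in females alone and was -0.15 in males. By mean score the female difference was 0.03 with all lungs and -0.10 without fractionated mouse 11, which had a score of 0.68. Irf9, part of the factor that drives these genes, stood at -0.10 ± 0.06, and Mx2, an antiviral GTPase, at -0.27 ± 0.15. Of 12 MHC class II genes 10 were lower, with a median of -0.06 that was -0.17 without the 3 lungs named above, -0.01 without fractionated mouse 14 and 0.04 without slides 3 to 5. H2-Ob, which tempers peptide loading, stood at -0.25 ± 0.18 and H2-Eb1, a class II beta chain, at -0.10 ± 0.13.

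Of the stress lists, that of immediate early genes was the most one-sided. Of its 18 tested members 17 were lower in fractionated lungs, and the median of -0.12 stayed below 0 under each setting tried, between -0.21 and -0.05. The -0.21 was the value with array 13 in the fit. With median scaling the list had -0.19, to be read against the -0.09 over all probes under that scaling. The median was -0.05 without acute mouse 5, whose score of 0.52 was the highest of the acute group. Nr4a2, a nuclear receptor induced within minutes of a stimulus, stood at -0.30 ± 0.17 and Jund, a component of AP-1, at -0.26 ± 0.15, and no member was under an unadjusted p of 0.05. The scores ran from -0.51 through 0.01 to 0.26 in fractionated lungs and from -0.38 through -0.01 to 0.52 in acute lungs, so the medians of the groups were alike and the ends differed.

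The clock list had a median of -0.08 over 12 genes, which was 0.02 without fractionated mouse 2. That mouse had a score of -1.16, while the next lowest fractionated lung had -0.27 and the lowest acute lung -0.29. Dbp, an output factor of the clock, stood at -0.41 ± 0.30 and Nr1d1, the repressor Rev-erb alpha, at -0.30 ± 0.29. Of 15 genes responsive to glucocorticoids 12 were higher, with a median of 0.07 that was -0.0052 with median scaling and -0.04 in females alone. Fkbp5, a co-chaperone of the glucocorticoid receptor, stood at 0.32 ± 0.23, and Tsc22d3, its target GILZ, at 0.17 ± 0.12.

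Heat shock genes and antioxidant genes had medians of 0.01 and -0.0086 over 18 and 24 genes, and the first was -0.12 in females, 0.12 in males and -0.08 with median scaling. Hspa1b, the twin of Hspa1a, stood at -0.32 ± 0.18; the 2 genes are near-identical copies, so their probes may share transcripts. Prdx1, a peroxiredoxin that removes peroxides, was under an unadjusted p of 0.05, at 0.08 ± 0.04, and Srxn1, which restores it, stood at 0.09 ± 0.07. Hmox1 and Nqo1, the classic targets of Nrf2, had differences of -0.04 ± 0.199 and -0.08 ± 0.169.

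The output of the Ras and MAPK pathway, which carries growth signals from receptors to the nucleus, was followed as a list. Of its 15 tested genes 13 were lower in fractionated lungs, and no member was under an unadjusted p of 0.05. The median of -0.08 stayed below 0 under each setting tried, between -0.16 and -0.03. The -0.16 was the value with median scaling, to be read against the -0.09 over all probes under that scaling. Dusp5, a phosphatase that ERK induces against itself, stood at -0.25 ± 0.14, and Araf, a kinase of the cascade, at -0.09 ± 0.05. Dusp6, a like phosphatase, had medians of 12.35 in fractionated, 12.38 in acute and 12.54 in control lungs, and an interval of -0.16 to 0.12. The lung tumour markers had a median of 0.01 over 16 genes, which turned to -0.07 with median scaling and to -0.05 without fractionated mouse 4. Lgals4, a galectin of epithelia, was under an unadjusted p of 0.05, at -0.32 ± 0.13, and Sox9, a factor of the lung bud and of tumours, stood at 0.38 ± 0.30.

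Genes of matrix and of TGF-beta signalling, followed for fibrosis, were divided. Of 32 matrix genes 19 were higher and 13 lower, with a median of 0.02 that was -0.05 with median scaling. Thbs2, a matrix glycoprotein, stood at -0.36 ± 0.17, under an unadjusted p of 0.05, and Dcn, decorin, at -0.18 ± 0.12. Col1a1, the main chain of fibrillar collagen, ran from 9.10 through 9.995 to 11.49 in fractionated lungs and from 9.73 through 10.28 to 11.04 in acute lungs. Its difference was -0.13 ± 0.202, and 8 of 13 fractionated lungs lay outside the acute range, on either side of it. Of 22 TGF-beta genes 14 were lower, with a median of -0.03 that was 0.09 in females alone. Ltbp3, which stores latent TGF-beta in the matrix (-0.20 ± 0.07), and Bmp4, a ligand of the same superfamily (-0.18 ± 0.09), were both under an unadjusted p of 0.05. They were 2 of 22, against 135 of 10269 genes (1.31%), and neither passed the adjustment. Tgfb1 itself stood at -0.17 ± 0.227.

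Of 62 genes of oxidative phosphorylation 51 were higher in fractionated lungs, with a median of 0.04 that turned to -0.03 with median scaling and in females alone, and all 62 intervals lay within 1.5-fold. Atp5e, a subunit of ATP synthase, stood at 0.20 ± 0.10 and Ndufc1, of complex I, at 0.14 ± 0.07. Of 19 genes of cholesterol and fatty acid synthesis 16 were higher, with a median of 0.10, which was 0.05 without fractionated mouse 7 and 0.05 without the 3 lungs named above. With median scaling it was 0.00042. Sqle, squalene epoxidase, stood at 0.22 ± 0.10, under an unadjusted p of 0.05, and Nsdhl, a later enzyme of the pathway, at 0.20 ± 0.14.

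The other housekeeping lists had medians of 0.0092 for 16 glycolytic genes, 0.03 for 26 proteasome genes and -0.03 for 34 cytosolic ribosomal proteins. With median scaling the first turned to -0.07 and the second to -0.05. Slc2a1, the glucose carrier, stood at 0.15 ± 0.11 and Pgam1, phosphoglycerate mutase, at 0.14 ± 0.11. Psmd2 and Psmb6, of the proteasome, stood at 0.24 ± 0.16 and 0.08 ± 0.05, and Rpl37 and Rps15, of the ribosome, at -0.07 ± 0.04 and -0.10 ± 0.06.

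**Figure D5:**
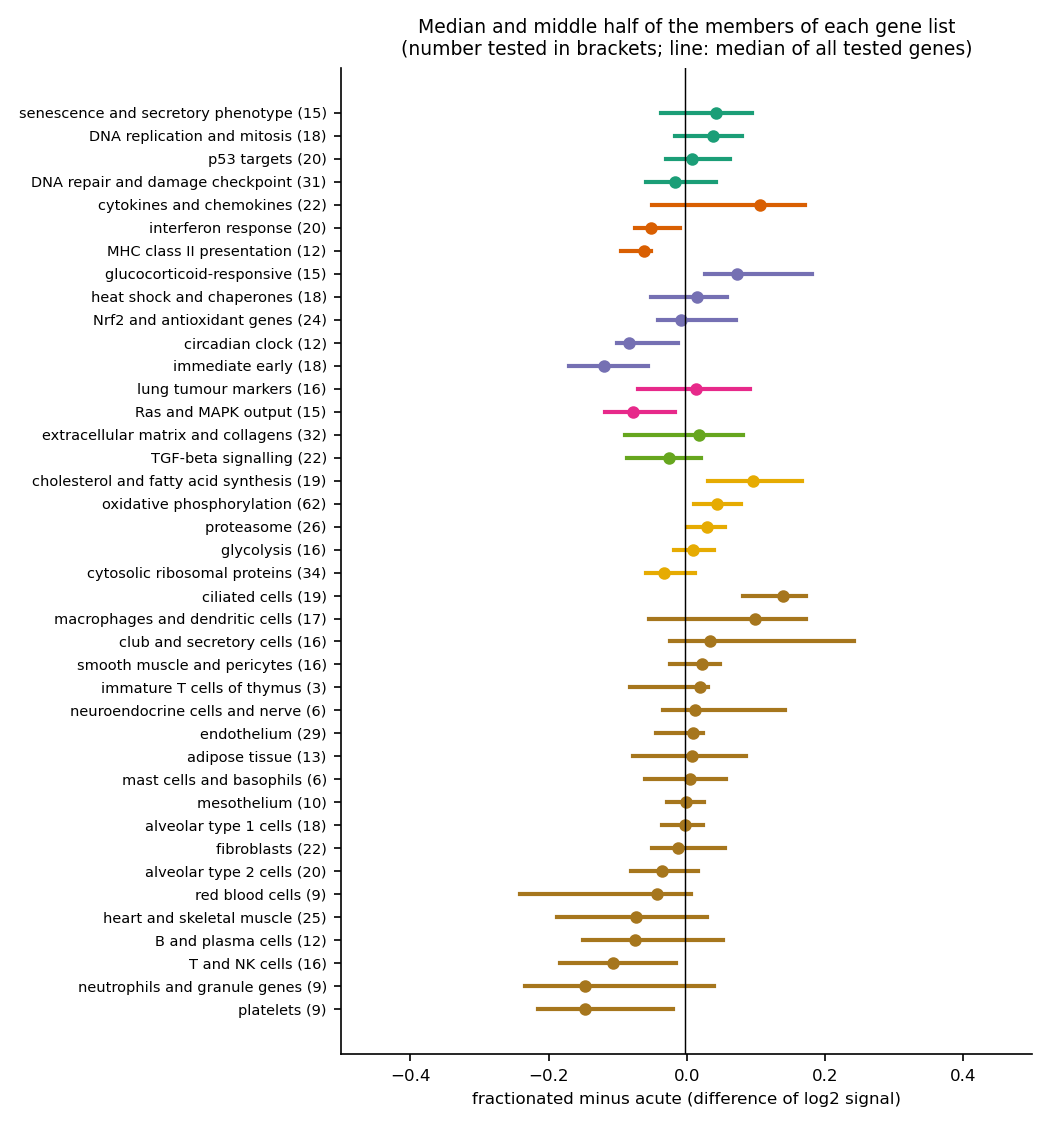
Median (point) and interquartile range (bar) of the differences of log2 signal, fractionated minus acute (horizontal axis), over the tested members of 40 gene lists (vertical axis, number tested in brackets), with a line at the median of all tested genes. The medians of the lists lie between -0.15 (platelets) and 0.14 (ciliated cells), and most bars cross the line.

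Among cell types, ciliated cells had the highest median. Of 19 tested genes of these cells, which move mucus along the airways, 17 were higher in fractionated lungs, with a median of 0.14 that was 0.06 with median scaling and 0.08 with slide as a block. It was 0.09 without fractionated mouse 3 and -0.05 on slides 3 to 5 alone. Tubb4b, a tubulin of cilia, stood at 0.10 ± 0.07, Dynlrb2, of axonemal dynein, at 0.19 ± 0.14, and Foxj1, the factor that sets the ciliated fate, at 0.07 ± 0.134. The scores ran from -0.59 through 0.09 to 0.75 in fractionated lungs and from -0.37 through -0.04 to 0.37 in acute lungs, so the fractionated range enclosed the acute one.

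Club and secretory genes had a median of 0.03 over 16 genes, which turned to -0.03 with median scaling, and Scgb1a1, the main product of club cells, had an interval of -0.16 to 0.12. Alveolar type 2 and type 1 genes had medians of -0.04 and -0.0020. Fabp5, a fatty acid carrier, stood at 0.24 ± 0.18 and Sftpb, a surfactant protein, at -0.20 ± 0.16, while Gprc5a, an epithelial receptor, stood at -0.14 ± 0.09 and Krt7, a keratin, at 0.08 ± 0.07. Sftpc and Ager, the defining markers, had intervals of -0.14 to 0.14 and -0.09 to 0.17.

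Of the stroma, endothelial genes had a median of 0.0087, smooth muscle and pericyte genes 0.02, fibroblast genes -0.01 and mesothelial genes -0.0013, and the first and second turned to -0.07 and -0.06 with median scaling. Egfl7 and Calcrl, both of endothelium, stood at -0.21 ± 0.13 and 0.29 ± 0.20, and Pecam1, its common marker, at 0.01 ± 0.124. Col3a1, a fibrillar collagen of fibroblasts, stood at 0.22 ± 0.17, Lmod1, of smooth muscle, at 0.28 ± 0.17, and Pdgfrb, of pericytes, at -0.19 ± 0.14. Msln and Upk3b, of mesothelium, stood at -0.09 ± 0.17 and -0.08 ± 0.16.

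Of the blood lineages, T and NK cell genes had a median of -0.11 over 16 genes, 12 of them lower, which was 0.06 without slides 3 to 5. Cd6, a T cell adhesion receptor, stood at -0.34 ± 0.18 and Cd3d, of the T cell receptor complex, at -0.24 ± 0.14. Cd3e, of the same complex, had medians of 8.31 in fractionated, 8.59 in acute and 8.75 in control lungs, and a difference of -0.18 ± 0.135. B cell genes had a median of -0.07 over 12 genes, which was -0.31 on slides 3 to 5 alone, 0.08 without those slides and 0.06 in females. Among them were Blk, a kinase of B cells, at -0.27 ± 0.23 and Fcer2a, their low-affinity receptor for IgE, at 0.27 ± 0.24. The list of macrophages and dendritic cells had a median of 0.10 that was -0.02 without fractionated mouse 7 and 0.18 without acute mouse 9. In it Mmp12, macrophage elastase, stood at 0.44 ± 0.43, and Marco, a scavenger receptor, at 0.20 ± 0.302.

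The lists of neutrophils, platelets and red blood cells, 9 tested genes each, had medians of -0.15, -0.15 and -0.04. Without acute mouse 12, which had the highest neutrophil score of all lungs (2.17), the 3 medians were 0.05, -0.06 and 0.02. The platelet list was -0.35 in females and -0.02 in males, and the red blood cell list -0.29 and 0.0072. In the neutrophil list none of the 9 intervals lay within 1.5-fold. Camp and Mmp9, of neutrophil granules, stood at -0.40 ± 0.31 and -0.32 ± 0.29, and S100a8, a calcium-binding protein of neutrophils, at -0.15 ± 0.430. Ppbp and Tubb1, of platelets, stood at -0.40 ± 0.35 and -0.27 ± 0.30, and Alas2 and Fech, of haem synthesis, at -0.45 ± 0.28 and -0.24 ± 0.24. Mast cell genes had a median of 0.0051 over 6 genes, which turned to -0.07 with median scaling, with Fcer1a, a chain of the high-affinity receptor for IgE, at 0.16 ± 0.11 and Cpa3, a granule protease, at -0.14 ± 0.29. For 3 tested genes of immature T cells of the thymus the median was 0.02, and it turned to -0.09 with median scaling.

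Genes of tissues that can be carried along with a lung had wide spreads. Heart and skeletal muscle genes had scores from -2.38 to 1.99 in fractionated lungs and from -1.90 to 1.09 in acute lungs, and only 2 of 25 intervals lay within 1.5-fold. Their median of -0.07 was 0.18 without fractionated mouse 4, with Myl1, a myosin light chain, at -0.50 ± 0.55 and Nppa, the atrial hormone, at 0.61 ± 0.68. Adipose genes had a median of 0.0080 over 13 genes, which turned to -0.09 with median scaling, with Lipe, hormone-sensitive lipase, at 0.29 ± 0.17 and Cidea, of lipid droplets, at 0.30 ± 0.27. Neuroendocrine and nerve genes had a median of 0.01 over 6 genes, which turned to -0.07 with median scaling, with Uchl1 at 0.20 ± 0.14 and Resp18 at 0.18 ± 0.18. Of the liver list 1 gene was tested.

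Both sexes were in both groups, so the difference between females and males in the effect of regimen was tested itself. By limma, 0 probes passed the adjustment (0.0%; smallest adjusted p 0.99), and 528 were under an unadjusted p of 0.05 (2.95%). With slide as a fixed block the count was 1304, still with 0 past the adjustment (smallest adjusted p 0.67). Tchp, a keratin-binding protein of the centrosome, had the smallest p, with fractionated minus acute at 0.31 in females and -0.17 in males. Myo6, an actin motor, stood at 0.23 in females and -0.28 in males, and Acad10, of the acyl-CoA dehydrogenase family, at 0.28 and -0.41. In the other direction were Rad9a, of the checkpoint clamp (-0.46 in females and 0.36 in males), B3galnt2, a glycosyltransferase (-0.45 and 0.18), and Larp4, an RNA-binding protein (-0.27 and 0.39).

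Several lists split by sex, endothelial genes among them. In females 28 of 29 endothelial genes stood higher in fractionated lungs, with a median of 0.17, and in males 2 of 29, with a median of -0.22, beside medians of 0.0074 and -0.01 over all 10269 genes. Of the 29 genes, 1 had an interaction under an unadjusted p of 0.05, against 282 of 10269 (2.75%). Acute mouse 9 and fractionated mouse 4 had the lowest scores of these genes. By mean score the difference in females was 0.19 with all lungs and 0.08 without acute mouse 9, and in males -0.19 with all lungs and -0.03 without fractionated mouse 4. No test of these scores was made. Heat shock genes lay the other way, with 3 of 18 higher in females (median -0.12) and 14 of 18 in males (median 0.12), and 3 of the 18 had an interaction under an unadjusted p of 0.05. Fibroblast genes had medians of 0.11 in females and -0.10 in males, and mesothelial genes 0.12 and -0.12. Genes of macrophages and dendritic cells had medians of -0.11 in females and 0.23 in males. By mean score the splits of macrophage and fibroblast genes also depended on single lungs. The heat shock and mesothelial splits were not examined in this way. Without acute mouse 9 the female difference went from -0.09 to 0.06 for macrophage genes and from 0.09 to -0.00078 for fibroblast genes. Without fractionated mouse 4 the male difference went from 0.24 to 0.02 and from -0.08 to 0.07 in the same order.

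Set beside the control lungs, which both comparisons share, the genes of smallest p took different positions. Ypel3 stood at -0.21 in fractionated and 0.0082 in acute lungs, each minus control, and Rgl2 at -0.23 and 0.05. Abca4 stood at -0.12 and 0.28, Iqgap1 at -0.0086 and 0.39, and Cflar at -0.02 and 0.28. By these values the acute lungs were the farther from control in these 3. For Iqgap1 this again rested on its dim probe, while its other tested probes hardly differed between the regimens. The genes were ranked by the difference between the regimens in these same lungs, so both regimens could not lie at the control level. The positions describe the values and are no separate support. Me2 stood at 0.14 and -0.10, and Fbxo32 at 0.18 and -0.23, with the control lungs between the regimens. For Ccdc88a the values were 0.32 and 0.06, and for Tnfrsf26 0.49 and 0.03.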

How the data were processed

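The authors deposited non-normalized values: the signal intensity of every probe on each of 42 arrays, paired with its detection p-value, per the file headers. The authors' deposited value table holds log2 values whose 41 filled columns each had a median of 3.96; its software and background step are not given in the sources used here. Per the labels' protocols, RNA came from the flash-frozen left lung and was labelled with biotin.

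Signals were normalized with neqc of limma 3.58.1 (R 4.3.3; background inferred from detection p, offset 16, quantile normalization, log2). Testing was restricted to probes with detection p under 0.01 on 13 or more of the 41 arrays. limma was fitted with group and sex on 41 arrays, with a trend in the variance, two-sided, and Benjamini-Hochberg adjustment over 17872 probes; confidence intervals are 95% ones. Precision rests on how many lungs were hybridised and on the spread between lungs and slides. A typical interval reached 0.229 to either side (median over probes), and 0.193 with slide as a fixed block. The fit was run on simulated data with independent noise for each probe and array and no slide effect. That run therefore does not test the fit under the slide differences of these arrays. Alternatives were slide as a block, other arrays, sexes, slides, scaling, background, filters and the deposited table; leaving out single lungs or the 3 that stood apart, and the slide block with array 13, were chosen after seeing the data.

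Names came from the platform annotation updated through RefSeq (GRCm38.p6): 34885 probes had 1 symbol, 18 several and 10378 none here. Named genes are the 10 of smallest p and the 5 of largest difference in each direction, 3 of the sex interaction in each direction, fixed genes, and the 2 members of smallest p of each of 41 lists. A list gene is represented by its tested probe of highest mean. Trp53, Ifit1 and Ccl2 were not analysed here, and some items are not reported here. The comparison, its members and the lists were chosen with earlier results of these data known.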

Additional observations from a re-analysis of the deposited data

Results flagged for a closer look

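The array of fractionated replicate 13, outside the comparison, held signals above those of the control lungs. Its mean log2 level of 18 genes of DNA replication and mitosis was 3.96 above the control median, while the other 41 arrays lay between -0.57 and 0.69. Genes of T and NK cells lay 2.21 above the control median, against at most 0.57 on the other arrays, and 3 genes of immature T cells of the thymus lay 1.81 above it, against at most 0.34. Genes of endothelium lay at -2.04 and those of alveolar type 1 cells at -1.57 on that array. With it in the fit, 0 probes passed the adjustment and 372 were under an unadjusted p of 0.05. The sex of this animal was female per its label, and what its tissue was made of was not tested.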

How the results depend on the processing

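Under each setting run, 0 probes passed the adjusted p of 0.05 by limma, for the regimens and for the sex interaction. The count at an unadjusted p under 0.05, 308 in the comparison as reported, was 503 with slide as a fixed block, 530 with slide as a random block and 557 with the slide block and array 13. It was 471 in males only, 1612 with no detection filter (more probes tested), 201 with probes detected on all arrays (fewer tested), 877 on slides 3 to 5 only and 555 without slides 3 to 5. The interaction count of 528 was 1304 with slide as a fixed block, 228 with median scaling and 1779 with no detection filter. No paired analysis was possible because replicate numbers follow the order of the arrays and pair no mice.

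Of 131 named probes, these changed direction (differences of log2 signal). In females only: Bpifb1 -0.19, Scgb3a1 -0.33, Bpifa1 -0.92, Cops8 0.24, Myo6 0.23, Acad10 0.28, Larp4 -0.27, Cdkn1a -0.29, Ccng1 -0.012, Gadd45a -0.071, Atm 0.0095, Dusp6 0.048, Marco -0.11, Mmp12 -0.30, Irf9 0.0039, Mx2 0.063, Fkbp5 -0.10, Dbp 0.0051, Nr1d1 0.32, Sox9 -0.0022, Pgam1 -0.035, Psmd2 -0.068, Pdgfrb 0.081, Msln 0.13, Upk3b 0.11, Satb1 0.069, Cd8b1 -0.14, Blk 0.077, Cpa3 0.073, Myl1 0.017 and Nppa -0.70. In males only: Tchp -0.17, Rad9a 0.36, B3galnt2 0.18, Mdm2 0.026, Top2a 0.16, Sftpc 0.049, Scgb1a1 0.041, Ager -0.094, Pecam1 -0.039, Hmox1 0.0072, S100a8 0.068, Camp 0.023, Ppbp 0.051 and Uchl1 -0.0037. With median scaling: Tchp -0.049, Larp4 -0.012, Cdkn1a -0.0067, Gadd45a -0.058, Mcm6 -0.029, Foxj1 -0.020, Pecam1 -0.047, Srxn1 -0.010 and Cd8b1 -0.040. With slide as a fixed block: Dusp6 0.0022, Top2a 0.022, Pecam1 -0.034 and Hmox1 0.025. With slide as a random block: Pecam1 -0.0054. With array 13: Rad9a 0.014, Mdm2 0.019, Atm 0.071, Cdkn2a 0.0042, Top2a 0.37, Ager -0.025, Pecam1 -0.10, Cd3e 0.15, Cenpa 0.12, Krt7 -0.011, Cd3d 0.082 and Satb1 0.11. With the deposited value table: Sftpc 0.0013. The causes were not tested. The number of arrays limits the precision, and dim probes lie near background.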

Other observations

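Cops8 took 3 separate levels over the 41 lungs, with 5 lungs between 4.78 and 5.23, 25 between 9.21 and 9.80, and 11 between 10.21 and 10.66. All 3 groups held lungs at each level.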
